A study of Mus musculus with 6 samples.

Results

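Long noncoding RNAs are transcribed and processed much like messenger RNAs but are not known to work through an encoded protein. The 7 genes described here are the nuclear RNAs Malat1 and Neat1 and the snoRNA host genes Gas5, Snhg1, Snhg6, Snhg8 and Snhg12. They were picked by symbol, through the Ensembl identifier of each row of the deposited table, and are 7 of its 28914 genes. All 7 passed the filter on low values, at least 1 FPKM (fragments per kilobase of gene, scaled to library size) in at least 2 libraries, as did 10798 genes in all.

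The RNA came from total CD4 T cells sorted from spleens of NOD mice at 12 weeks of age. NOD mice develop autoimmune diabetes spontaneously, and the cells received no further stimulation of the T cell receptor. Of the 6 libraries, 2 were labelled CKO (Blimp-1 deficient, with the genotype given as Blimp1 knockout), 2 were labelled BTg (Blimp-1 overexpressed) and 2 were labelled WT (control). Blimp-1, encoded by Prdm1, is a transcriptional repressor that limits T cell activation. The labels do not name the Cre line, the promoter of the transgene or the number of mice per library, and all groups share the NOD background.

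Malat1 sits in nuclear speckles, bodies rich in splicing factors, and is among the most abundant long noncoding RNAs of mammalian cells. Neat1 is the scaffold of paraspeckles, which form around it on the proteins Nono and Sfpq. The host genes carry small nucleolar RNAs (snoRNAs) in their introns, which are released when the host is spliced. Box C/D snoRNAs guide methylation of ribosomal RNA and box H/ACA snoRNAs guide its pseudouridylation. Many host RNAs begin with a run of pyrimidines, as messenger RNAs of ribosomal proteins do, and their spliced forms are commonly removed by nonsense-mediated decay.

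GENCODE M21 places 25 snoRNA genes at 23 distinct positions inside the 5 hosts. Gas5 (ENSMUSG00000053332, chr1:161034422-161038539, plus strand) holds 10, Snhg1 (ENSMUSG00000108414, chr19:8723475-8726443, plus strand) 8 and Snhg12 (ENSMUSG00000086290, chr4:132308623-132311024, plus strand) 5. Snhg6 (ENSMUSG00000098234, chr1:9941959-9944118, minus strand) and Snhg8 (ENSMUSG00000104960, chr3:123507552-123508404, minus strand) hold 1 each. By name and length, 20 of the 25 are box C/D and 5 are box H/ACA snoRNAs. The C box letters TGATGA and the D box letters CTGA were both found in 16 of the 20, and the letters ACA at 3 bases from the 3′ end in 4 of the 5. One snoRNA per host, chosen among those with a full name, is shown as an example of what each host releases. The sequences are from GENCODE M21 (GRCm38), 5′ to 3′, with the C and D boxes or the ACA in capitals.
Snord47 in Gas5, chr1:161038082-161038158, plus strand: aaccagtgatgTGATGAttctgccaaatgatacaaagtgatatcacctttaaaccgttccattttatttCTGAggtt
Snord22 in Snhg1, chr19:8725866-8725991, plus strand: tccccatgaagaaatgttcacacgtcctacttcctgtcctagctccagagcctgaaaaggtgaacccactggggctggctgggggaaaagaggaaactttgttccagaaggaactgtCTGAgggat
Snord87 in Snhg6, chr1:9942463-9942549, minus strand: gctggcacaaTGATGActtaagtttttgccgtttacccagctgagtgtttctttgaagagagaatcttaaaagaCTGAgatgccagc
Snora24 in Snhg8, chr3:123507937-123508066, minus strand: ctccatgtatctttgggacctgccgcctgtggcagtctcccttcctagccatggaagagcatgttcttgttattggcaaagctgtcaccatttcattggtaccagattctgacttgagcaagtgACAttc
Snora16a in Snhg12, chr4:132309464-132309600, plus strand: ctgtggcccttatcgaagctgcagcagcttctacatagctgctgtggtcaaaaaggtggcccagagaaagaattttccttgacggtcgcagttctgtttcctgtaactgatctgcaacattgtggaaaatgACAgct
Snord22 carries the D box letters but not TGATGA. Such matches describe letters and do not test function.

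The starts of the genes are shown for the pyrimidine run. RefSeq promoters (GRCm38.p6) were found for 5 of the 7 genes by symbol, Gas5 with 2 starts. Neat1 and Snhg6 had no entry there. For Snhg6 the first 30 bases of a GENCODE M21 transcript are shown, the 1 of its 5 that begins with such a run. That transcript was picked for the run, so its sequence does not test whether Snhg6 has it. Each RefSeq window holds 30 bases before the start and 30 from it on. Capitals mark a C followed by at least 4 C or T, beginning within 5 bases of the start, on the gene's strand. The C nearest the start was taken, so letters before the capitals can belong to the same run, as at Snhg12.
Gas5 first start, chr1:161034571-161034630, plus strand: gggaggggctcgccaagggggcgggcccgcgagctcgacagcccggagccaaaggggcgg
Gas5 second start, chr1:161035136-161035195, plus strand: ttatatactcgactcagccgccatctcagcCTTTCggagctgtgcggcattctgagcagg
Snhg8, chr3:123508307-123508366, minus strand: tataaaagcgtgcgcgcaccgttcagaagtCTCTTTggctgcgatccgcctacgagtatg
Snhg12, chr4:132308648-132308707, plus strand: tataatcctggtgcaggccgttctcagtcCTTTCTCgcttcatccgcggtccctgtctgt
Snhg1, chr19:8723457-8723516, plus strand: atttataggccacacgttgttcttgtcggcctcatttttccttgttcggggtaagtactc
Malat1, chr19:5802643-5802702, minus strand: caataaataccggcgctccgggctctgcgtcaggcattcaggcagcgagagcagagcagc
Snhg6 transcript start, chromosome 1, minus strand: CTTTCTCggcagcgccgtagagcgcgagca
The run was found at the second Gas5 start, at Snhg8 and at Snhg12, and not at the first Gas5 start, Snhg1 or Malat1. It was present in 18.4% of 32851 RefSeq promoters and in 31 of 74 promoters of ribosomal protein genes (41.9%). In GENCODE M21, 5 of 25 Gas5 transcripts, 3 of 10 Snhg12 transcripts, 1 of 3 Snhg8 transcripts and 1 of 5 Snhg6 transcripts began with such a run. None of the 18 Snhg1, 4 Malat1 or 4 Neat1 transcripts did. GAAAG, letters at the core of the site that Blimp-1 binds, was searched on both strands of the 300 bases of each promoter. It occurred 2 times at the second Gas5 start, 2 times at Snhg12 and 1 time at Snhg8, and 57.3% of all promoters held it. The longer GTGAAAG, which contains GAAAG, is in 4.24% of all promoters and in none of these windows. The E-box CACGTG, bound by Myc, is in 7.15% of all promoters and in none of these. These matches describe letters, and their absence says only that the letters are not in the window.

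The libraries held 14958458 to 17799091 reads assigned to genes. Prdm1, read as a check of the labels, had 0.849 and 0.669 FPKM in the libraries labelled CKO, 19.6 and 30.1 in BTg and 0.458 and 0.628 in WT. Its level was thus not lower in the libraries labelled CKO than in WT, and these counts over the whole gene do not show a deletion of single exons. All 10 CD4 T cell markers were above 1 FPKM in at least 2 libraries, and Cd8a was at most 0.130 FPKM. CKO library 1 stood apart: 11 neutrophil markers summed to 7135 FPKM there, against 165.9 in CKO library 2, 28.7 and 30.2 in BTg and 48.4 and 129.6 in WT. Of the 11, 9 were above 1 FPKM in at least 2 libraries and none was at 0 throughout, and S100a8 alone had 3612 FPKM in CKO library 1. Plasma cell markers were also highest there, at 966.1 FPKM in sum, and CD4 T cell markers lowest, at 1282 FPKM in sum against 1503 to 2588 in the other 5. These libraries are bulk samples, in which fewer cells of a type and less RNA per cell cannot be told apart.

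Per length of merged exons, Malat1 was by far the most abundant of the 7 genes. Its level averaged 429.4 ± 145.1 exon-length FPKM (SD, n = 6 libraries), and its lowest library, at 176.6, lay above the highest of any other member. Snhg8 followed at 61.6 ± 24.6 and Gas5 at 51.9 ± 7.93 exon-length FPKM (SD, n = 6), with overlapping libraries. Below a gap came Snhg6 at 24.9 ± 3.56, Snhg1 at 22.6 ± 3.45, Neat1 at 15.2 ± 5.54 and Snhg12 at 14.4 ± 2.49 exon-length FPKM (SD, n = 6), where each neighbour overlapped the next. This order depends on the annotated exons, merged over all transcripts. They cover 53.1% of the Snhg6 gene, 91.3% of Gas5 and 100% of the others, introns of some transcripts included. By reads, Neat1 (2752 to 7313) was above Gas5 (2418 to 4282) in every library but CKO library 1. Malat1 varied 3.27-fold between its lowest and highest library, Neat1 3.16-fold and Snhg8 2.59-fold, against 1.44-fold to 1.65-fold for Gas5, Snhg1, Snhg6 and Snhg12.

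The length used for the deposited FPKM is the median span, introns included, over the transcripts of a gene, so these FPKM do not order genes by abundance. That span is 0.217 of the exon length for Malat1, 0.141 for Neat1 and 1.81 times it for Snhg6. Values below are deposited FPKM of 1 gene between libraries, for which the divisor cancels.

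**Figure D1:**
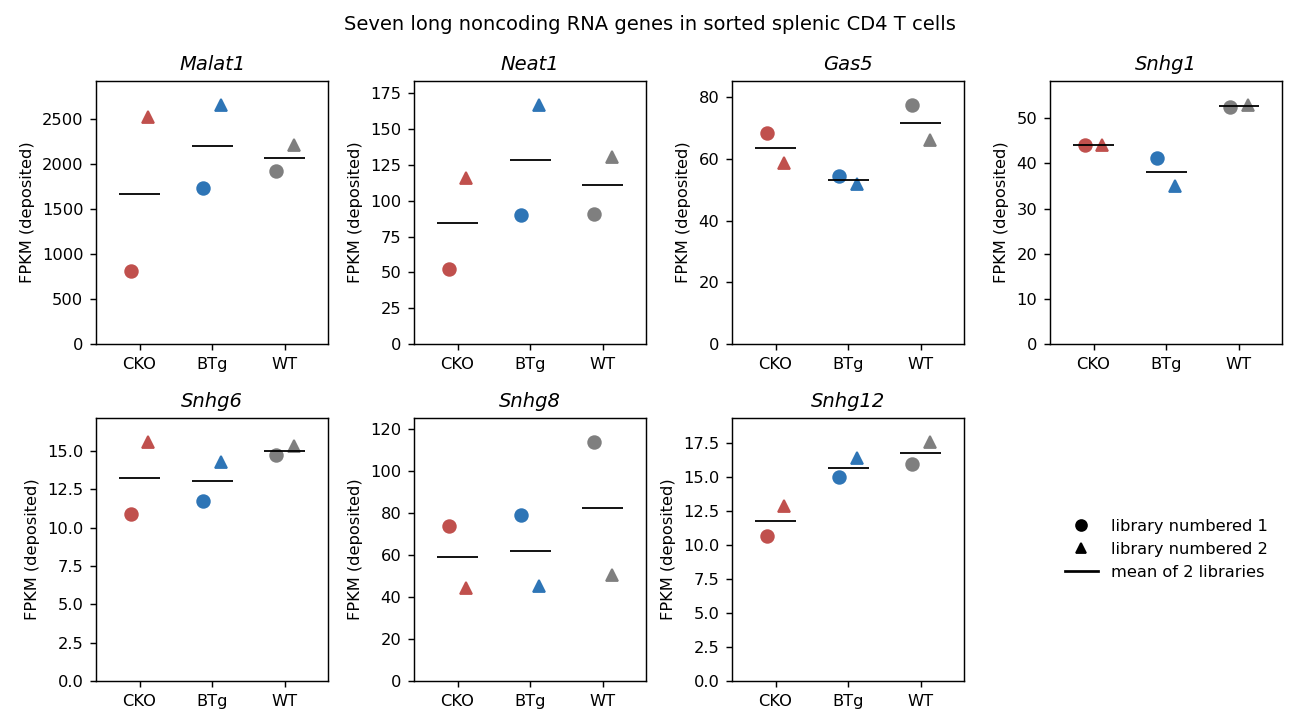
Deposited FPKM of each of the 7 genes in the 6 libraries, with a panel and a linear axis from 0 per gene and groups in the order CKO, BTg and WT. Circles are libraries numbered 1, triangles libraries numbered 2, and short bars group means of 2 libraries. Malat1 and Neat1 are lower in number 1 of every group and Snhg8 higher.

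Malat1 (ENSMUSG00000092341, chr19:5795690-5802672, minus strand, annotated as a lincRNA) had 813.1 and 2523 FPKM in the libraries labelled CKO, 1738 and 2658 in BTg and 1922 and 2210 in WT, libraries 1 and 2 in that order. CKO library 1 was far below the other 5 libraries, which lay within the range from 1738 to 2658, and the groups overlapped. In reads, Malat1 took 0.123% and 0.383% of the libraries labelled CKO, 0.264% and 0.403% of BTg and 0.291% and 0.335% of WT. It ranked 91st and 4th among genes by reads in CKO, 18th and 3rd in BTg and 23rd and 5th in WT.

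Neat1 (ENSMUSG00000092274, chr19:5824708-5845478, minus strand, a lincRNA) had 52.7 and 115.7 FPKM in the libraries labelled CKO, 90.2 and 166.6 in BTg and 90.6 and 130.5 in WT. CKO library 1 was again the lowest and BTg library 2 the highest, and the groups overlapped. Neat1 lies upstream of Malat1 on the same strand, and the log2(FPKM + 1) values of the pair had a Pearson r of 0.94 over the 6 libraries, which share depth and composition. Their ratio in reads, Malat1 over Neat1, was 7.97 and 11.3 in CKO, 9.96 and 8.24 in BTg and 11.0 and 8.75 in WT. In mature form Malat1 lacks a poly(A) tail and the long Neat1 isoform does too, and whether the libraries were poly(A) selected is not given in the sources used here.

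Gas5 (annotated as a processed transcript), a host whose spliced RNA accumulates when growth stops, had 68.4 and 58.5 FPKM in the libraries labelled CKO, 54.5 and 52.0 in BTg and 77.4 and 66.0 in WT. Both BTg libraries were below the other 4, and 1 library labelled CKO lay between the WT libraries. Gas5 shares 428 bases with Zbtb37 on the other strand, none of them exonic in both.

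Snhg1, the richest in snoRNA genes after Gas5, had 44.0 and 44.2 FPKM in the libraries labelled CKO, 41.3 and 34.9 in BTg and 52.4 and 53.0 in WT. The 3 groups did not overlap, with WT highest and BTg lowest. Of all genes, 8.96% had both libraries labelled CKO below both WT libraries. Both BTg libraries were below both WT libraries for 10.4% and below both CKO libraries for 21.8%. The share of genes with all 3 groups apart was not counted.

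Snhg6, the host of Snord87, had 10.9 and 15.6 FPKM in the libraries labelled CKO, 11.8 and 14.3 in BTg and 14.7 and 15.3 in WT. The BTg libraries were below both WT libraries, and the libraries labelled CKO spanned all others. Snhg6 shares 127 exon bases with Mcmdc2 on the other strand. That gene had at most 10 reads in any library, against 373 to 575 for Snhg6.

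Snhg8, the host of Snora24, had 73.6 and 44.0 FPKM in the libraries labelled CKO, 78.8 and 45.1 in BTg and 113.8 and 50.4 in WT. Within each group, the library numbered 1 was the higher one, and the 3 libraries numbered 1 were above the 3 numbered 2.

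Snhg12, which holds Snora16a, Snora44, Snora61 and Snord99, had 10.6 and 12.9 FPKM in the libraries labelled CKO, 14.9 and 16.4 in BTg and 15.9 and 17.6 in WT. Both libraries labelled CKO were below the other 4, and BTg and WT overlapped.

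Between CKO and WT, all 7 genes had the lower mean in CKO, and none passed the threshold (limma on log2(FPKM + 1), Benjamini-Hochberg adjusted p under 0.05 over 10798 genes; 0.0% of all genes passed). At an unadjusted p under 0.05 it was also 0 of 7, against 454 of all genes (4.2%), and limma-voom on recovered reads called none. The largest difference was that of Malat1, −0.52 on the log2 scale (SE 0.60, 95% interval −1.99 to 0.94, limma adjusted p = 1.0). Snhg12 differed by −0.48 (SE 0.24, interval −1.07 to 0.11) and Snhg1 by −0.25 (SE 0.27), each with a limma adjusted p of 1.0. These were the 2 genes of 7 whose libraries labelled CKO lay below both WT libraries, as for 8.96% of all genes. No member had both libraries labelled CKO above both WT libraries (11.5% of all genes). The lower mean in CKO was found for 54.6% of all genes, and the 5 hosts had a median difference of −0.25, against −0.03 for all genes.

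Neutrophil markers took 1.34% of the reads of CKO library 1 and 0.04% of CKO library 2. Immunoglobulin gene segments took 6.99% and 1.8% of the same libraries, against 0.704% to 1.17% in BTg and WT. The part of either in these differences was not tested. Without CKO library 1, 4 of 7 genes were lower in CKO, and Malat1, Neat1 and Snhg6 differed by 0.29, 0.09 and 0.05 on the log2 scale. Snhg8 differed by −0.41 with all libraries and by 0.17 without WT library 1. Leaving out 1 library leaves the numbers 1 and 2 unequal between the groups. Between libraries of the same number, Neat1 and Snhg8 were lower in CKO than in WT for both numbers, and Malat1 and Snhg6 were lower for number 1 and higher for number 2. Gas5, Snhg1 and Snhg12 stayed lower with each library left out. Gas5 lay between −0.29 and −0.06, Snhg1 between −0.26 and −0.24 and Snhg12 between −0.61 and −0.35.

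**Figure D2:**
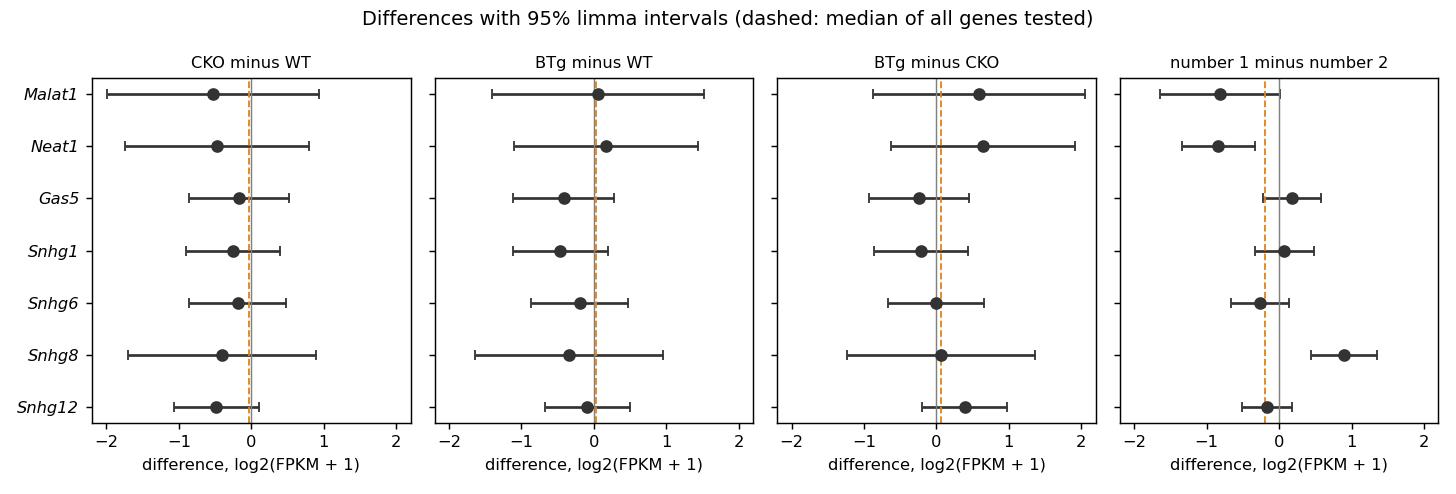
Differences in log2(FPKM + 1) of the 7 genes for CKO minus WT, BTg minus WT, BTg minus CKO and number 1 minus number 2, with 95% limma intervals. The orange dashed line is the median of all genes. In the first 3 panels every interval includes 0; in the last, those of Neat1 and Snhg8 do not.

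Between BTg and WT, which share the WT libraries with the comparison above, the 5 hosts had the lower mean in BTg and Malat1 and Neat1 did not (5 of 7 lower, 45.5% of all genes). The hosts had a median difference of −0.34, against 0.02 for all genes. No member passed the threshold (limma, 0 of 7), where 2 of 10798 genes did (0.0185%, Prdm1 and Igfbp4). At an unadjusted p under 0.05 it was 0 of 7, against 1.62% of all genes. Snhg1 differed by −0.46 (SE 0.27, interval −1.11 to 0.19) and Gas5 by −0.42 (SE 0.28, interval −1.11 to 0.27), each with a limma adjusted p of 1.0. Snhg8 differed by −0.34, Snhg6 by −0.20 and Snhg12 by −0.09, while Malat1 differed by 0.06 and Neat1 by 0.17. Gas5, Snhg1 and Snhg6 had both BTg libraries below both WT libraries, as did 10.4% of all genes, and no member had both above (14.7%). Without WT library 1, or without BTg library 2, Malat1, Neat1 and Snhg8 had the opposite sign. Malat1 was then −0.04 and −0.25, Neat1 −0.09 and −0.27, and Snhg8 0.24 and 0.05. Between libraries of the same number, Snhg8 was lower in BTg than in WT for both numbers, and Malat1 and Neat1 were lower for number 1 and higher for number 2.

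Between BTg and CKO, Malat1 (0.59, SE 0.60, limma adjusted p = 0.773), Neat1 (0.64, SE 0.52, limma adjusted p = 0.729) and Snhg12 (0.39, SE 0.24, limma adjusted p = 0.684) had the higher mean in BTg, as did Snhg8, and the other 3 of 7 the lower mean (43.9% of all genes). No member passed the threshold, where 2 genes did (0.0185%), and at an unadjusted p under 0.05 it was 0 of 7 against 8.79% of all genes. Snhg12 had both BTg libraries above both CKO libraries (17.8% of all genes), and Gas5 and Snhg1 had both below (21.8%). Without CKO library 1 the difference of Malat1 was −0.23 and that of Neat1 0.08. Snhg6 differed by −0.01 and Snhg8 by 0.07, and both had the opposite sign when CKO library 2 or BTg library 1 was left out.

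Between libraries numbered 1 and 2, Malat1 and Neat1 were lower and Snhg8 higher in number 1 of every group. No gene of 10798 passed the adjusted threshold (0.0%, limma with group as a term), and limma-voom called none. At an unadjusted p under 0.05 it was 3305 genes (30.6%), with 2500 lower (23.2%) and 805 higher (7.46%) in number 1, and 2 of the 7 members, Neat1 lower and Snhg8 higher. In mean, 4 of 7 members and 68.6% of all genes were lower in number 1 (3 of 7 members with median centring or limma-voom, where Snhg12 was higher). The labels do not say what the number marks. The median of all genes was −0.19, and limma-voom, which scales to reads differently, gave a median of −0.01, so some differences are also given relative to the first of these. The balance of the genes at an unadjusted p under 0.05 turned with the scaling: 1083 were lower and 1519 higher in number 1 with median centring, 1275 and 1466 with quantile normalization, and 1298 and 2071 under limma-voom.

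Neat1 was lower in number 1 in every group, with ratios of number 1 over number 2 of 0.455 in CKO, 0.541 in BTg and 0.694 in WT. Its difference was −0.84 (SE 0.19, interval −1.34 to −0.34, unadjusted p = 0.00875, limma adjusted p = 0.112), or −0.65 relative to the median. Malat1 had ratios of 0.322, 0.654 and 0.870 in CKO, BTg and WT and differed by −0.82 (SE 0.31, unadjusted p = 0.0533, limma adjusted p = 0.168). Without either CKO library it differed by −0.41, from the BTg and WT libraries alone, and with quantile normalization by −1.51. Both nuclear RNAs were thus lower in number 1 in 3 of 3 groups, as were Snhg6 and Snhg12 and 45.7% of all genes.

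Snhg8 was the member with the largest difference upward. Its ratio of number 1 over number 2 was 1.67 in CKO, 1.75 in BTg and 2.26 in WT, and its difference 0.89 (SE 0.17, interval 0.44 to 1.35, unadjusted p = 0.00478, limma adjusted p = 0.112), or 1.08 relative to the median. That difference was above those of 98.0% of all genes. Gas5 was also higher in number 1 in 3 of 3 groups (14.9% of all genes), by 0.17, and Snhg1 differed by 0.07. Snhg12 differed by −0.17, and by 0.08 under limma-voom. Gas5 reads exceeded Snhg8 reads 3.72-fold and 5.32-fold in CKO, 2.77-fold and 4.61-fold in BTg and 2.72-fold and 5.24-fold in WT, so the 2 hosts did not keep 1 ratio.

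Library composition moved with the number. Ribosomal protein genes took 11.4% and 7.45% of reads in the libraries labelled CKO, 11.8% and 7.42% in BTg and 16.8% and 8.38% in WT. Mitochondrial genes took 1.93% and 1.23% in CKO, 2.31% and 1.12% in BTg and 3.2% and 1.25% in WT. Erythroid markers were lower in number 1 in 10 of 10 (median −0.97, with −0.62 in CKO, −0.24 in BTg and −2.78 in WT). Cell cycle genes were lower in 34 of 36 (median −0.40, with 0.49 in CKO, −0.28 in BTg and −1.40 in WT). Of all genes, 68.6% were lower in number 1. Snhg8 ordered the 6 libraries as both shares did, apart from CKO library 2 and BTg library 2, which traded the last places. With genes in 5 equal bins of exon length, the median difference was −0.10, −0.0014, −0.14, −0.24 and −0.32 from the shortest to the longest. Snhg8 lies in the shortest bin, Snhg6 and Snhg12 in the next, and Malat1 and Neat1 in the longest. In CKO alone the shortest bin was at −0.31 and the longest at −0.46. The part of composition or length in the members' differences was not tested.

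**Figure D3:**
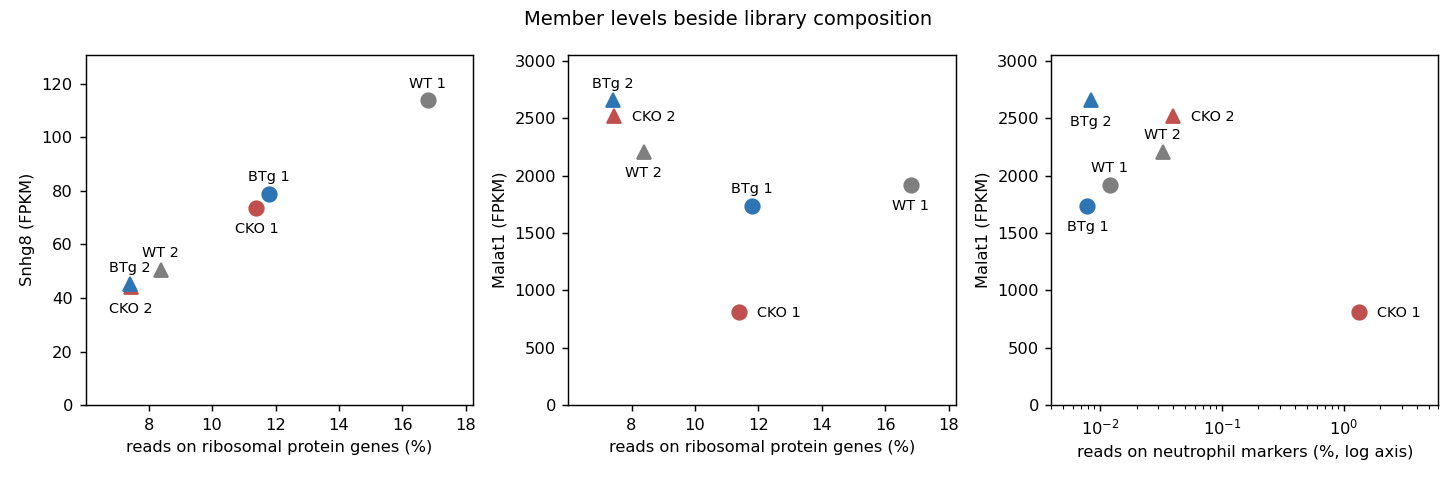
Snhg8 against the share of reads on ribosomal protein genes, and Malat1 against that share and against the share on neutrophil markers (log axis), with 1 point per library. Snhg8 is highest, 113.8 FPKM, in WT library 1 with 16.8% ribosomal protein reads. Malat1 is lowest, 813.1 FPKM, in CKO library 1 with 1.34% neutrophil marker reads.

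The genes whose levels ran most like each member were taken from 3074 protein-coding genes by Pearson r of log2(FPKM + 1) over the 6 libraries, which share depth and composition. For Snhg8 they were the ribosomal protein genes Rpl22 (r = 0.9993), Rps23 (0.9993) and Rps18 (0.9992). Rpl22 had 119.2 and 68.3 FPKM in the libraries labelled CKO, 124.8 and 68.7 in BTg and 187.4 and 80.3 in WT. For Malat1 they were Fam208b, Eml5 and Phip (0.995 to 0.996), and for Neat1 Taz, Zfp639 and Vps16 (0.996 to 0.999). Gas5 and Snhg1 shared Id2, an inhibitor of helix-loop-helix transcription factors, with r of 0.905 and 0.873. Gas5 was most like Cxcr6, a chemokine receptor (0.911). Snhg6 ran with Il6st, the shared signalling chain of interleukin-6 family receptors (0.983), and Snhg12 with Mylpf (0.963). Among the members, Gas5 and Snhg1 had an r of 0.841 and Neat1 and Snhg8 one of −0.621.

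Other genes of these pathways gave no call in any of the 4 comparisons (limma adjusted p, over all genes). Ribosomal proteins had a median difference of 0.77 between number 1 and number 2, with 81 of 82 tested genes higher, against a median of −0.19 for all genes. The 18 protein-coding genes that host snoRNAs had a median of 0.40, with 15 higher and 3 lower. The other noncoding hosts, of which 7 were tested, had a median of −0.05. Snhg20, the first of them by p, had 6.59 and 17.7 FPKM in the libraries labelled CKO, 11.3 and 20.6 in BTg and 12.8 and 19.5 in WT, low in number 1 as Neat1 was and not high as Snhg8 was.

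Nuclear speckle and splicing genes had a median of −0.51 between number 1 and number 2, with 25 of 27 lower in number 1. For all genes the median was −0.19, with 68.6% lower. Luc7l3, a splicing factor of speckles, had 9.33 and 14.8 FPKM in the libraries labelled CKO, 8.86 and 15.1 in BTg and 9.37 and 15.4 in WT. Paraspeckle proteins had a median of −0.31, with 16 of 19 lower (68.6% of all genes). Cpsf6, a subunit of a cleavage factor, had 6.14 and 10.5 FPKM in CKO, 7.03 and 11.9 in BTg and 6.91 and 10.9 in WT. Nonsense-mediated decay factors had a median of −0.22, near that of all genes. They included Magoh, of the exon junction complex, 0.95 higher in number 1, and the helicase Upf1, 0.72 lower (limma adjusted p = 0.112 for each). Of the other long noncoding RNAs 11 of 13 were lower in number 1 (68.6% of all genes), among them Mir17hg, which carries a miRNA cluster (−0.88).

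**Figure D4:**
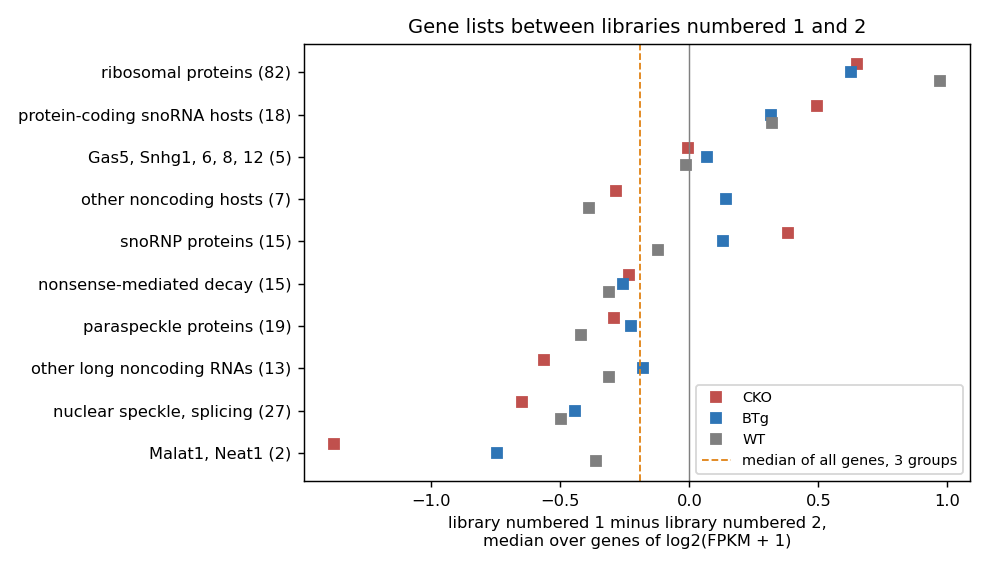
Median difference of log2(FPKM + 1) between the libraries numbered 1 and 2 in each group, for the gene lists, with the number of genes tested in brackets and the median of all genes as a dashed line. Ribosomal protein genes are at 0.65 in CKO, 0.63 in BTg and 0.97 in WT, and Malat1 with Neat1 is at −1.38, −0.75 and −0.36.

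Between CKO and WT the ribosomal proteins had a median of −0.35 (78 of 82 lower) and the snoRNP proteins, which bind snoRNAs, a median of 0.17 (12 of 15 higher), against −0.03 for all genes. Both libraries labelled CKO were below both WT libraries for 8 of 82 ribosomal proteins (8.96% of all genes). Both were above for 1 of 15 snoRNP proteins (11.5% of all genes). Between BTg and WT the ribosomal proteins were lower in 82 of 82 (median −0.34), the protein-coding hosts in 16 of 18 (−0.28) and the snoRNP proteins in 13 of 15 (−0.22), against a median of 0.02 for all genes. The groups overlapped for most of them. Both BTg libraries were below both WT libraries for 5 of 82, 5 of 18 and 7 of 15 in that order (10.4% of all genes). Nop58, a core protein of box C/D particles, had 17.7 and 13.2 FPKM in BTg and 22.3 and 18.9 in WT. Between BTg and CKO all 15 snoRNP proteins had the lower mean in BTg (median −0.34), against 0.06 for all genes, with both BTg libraries below both CKO libraries for 8 of 15 (21.8% of all genes). Cell cycle genes moved with them, with the lower mean in BTg and no overlap for 36 of 36 (median −1.35), and their part in the snoRNP values was not tested. Nhp2, a box H/ACA protein, had 23.2 and 16.7 FPKM in BTg and 54.6 and 22.3 in CKO, where library 1 was highest and library 2 overlapped BTg.

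The snoRNAs themselves could hardly be read from these values. Of the 25, 24 lie wholly inside annotated exons of their host, merged over all its transcripts, and none of them had a value among the rows analysed here. Such merged exons cover 100% of Snhg1, Snhg8 and Snhg12 and 91.3% of Gas5, so these snoRNAs can still be intronic in other transcripts. No gene among the rows was at 0 in all libraries, so a missing row may also mean no assigned reads. Snord87 of Snhg6, the 1 outside host exons, had 0 and 3 reads in the libraries labelled CKO, 0 and 0 in BTg and 5 and 3 in WT. These counts are too low for a comparison at this depth.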

How the data were processed

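Per the labels' protocols, libraries of TRIzol RNA were built with the NEBNext Ultra kit, which does not mark strand. The submitters' processing notes name the build GRCm38 and the tools featureCounts 1.6.0, HISAT2 2.1.0 and Trimmomatic 0.38. The annotation they used is not given in the sources used here. FPKM for 28914 genes were deposited by the authors, and all matched GENCODE M21. Multiplied by the median span of each gene's transcripts on the genome, 100.0% of values became whole reads within 0.01, which gave the totals. With merged exon length at most 22.9% did. Exon-length FPKM were computed from these reads.

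Groups and numbers came from sample titles; the number 2 of a BTg library rests on its bracketed column name. Values were taken as log2(FPKM + 1), and the genes at 1 FPKM or more in 2 or more libraries entered 1 limma fit (R 4.3.3, limma 3.58.1, eBayes with a trend) of 3 groups without a block, or with the number as a term for number 1 minus number 2. The threshold was a Benjamini-Hochberg adjusted p under 0.05. Fold changes on this scale understate changes of low genes. Whether libraries of 1 group are from different mice is not in the labels. The p-values therefore cover the spread between libraries, which may be technical.

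Named were the 7 members, snoRNA genes inside them, overlapping genes, up to 4 genes per list past the threshold or else up to 2 with the smallest p, the 3 protein-coding genes most like each member (mean at least 5 FPKM), and Prdm1. One gene that this rule names is not reported here. Igfbp4, Cd8a and S100a8 were named after their values were seen. The members and lists were chosen with earlier results of these data known. Alternatives were other pseudocounts and filters, centring, quantile normalization, limma-voom, exon length, the replicate number as a block and each library left out.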

Additional observations from a re-analysis of the deposited data

How the results depend on the processing

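Under 16 alternatives, no member passed the threshold in any comparison. Of 112 member results per comparison, 108 kept their direction between CKO and WT, 106 between BTg and WT, 105 between BTg and CKO and 108 between number 1 and number 2. These counts include alternatives that cannot change a difference. Between groups they are the filters, eBayes without a trend, the block and leaving out a library of the third group. Between numbers they are the filters, eBayes without a trend and the number without the group term. Adjusted p (limma) ranged over 0.268 to 1.0, 0.981 to 1.0, 0.162 to 1.0 and 0.0889 to 0.99. Genes past the threshold were 65 between CKO and WT, 46 between BTg and WT and 81 between BTg and CKO with no filter. With at least 5 FPKM they were 1 between BTg and WT and 5 between BTg and CKO. A pseudocount of 5 and quantile normalization each gave 0 in both. Between BTg and CKO limma-voom gave 5 and exon length 9. The host median was −0.40 between CKO and WT under quantile normalization, and between number 1 and number 2 it was 0.25 with median centring and 0.33 under limma-voom. Snhg6 between BTg and CKO was 0.0032 with median centring and 0.019 under quantile normalization. Snhg12 between number 1 and number 2 was 0.0067 with median centring and 0.0784 under limma-voom. The cause of these moves was not tested.

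With the replicate number as a block, 0 genes passed between BTg and WT and 0 between BTg and CKO, and no member's call changed. Differences of number 1 minus number 2 across 10798 genes had r of 0.456 between CKO and BTg, 0.173 between CKO and WT and 0.469 between BTg and WT. With only 2 numbers and no label that says what they mark, the libraries were taken to share only a number.

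With each library left out, genes past the threshold ranged from 0 to 67 between CKO and WT and from 0 to 238 between BTg and CKO, both highest without CKO library 2. The range was 0 to 0 between BTg and WT and 0 to 3 between numbers. The host median ranged from −0.287 to −0.215 between CKO and WT, −0.45 to −0.22 between BTg and WT, −0.279 to −0.0072 between BTg and CKO and −0.009 to 0.12 between numbers. The −0.0072 is the value with all libraries, which leaving out a WT library cannot change. With a BTg or CKO library left out, the range between BTg and CKO was −0.279 to −0.0925. Members lower, a count added after seeing the data, ranged from 4 to 7 between CKO and WT, 5 to 6 between BTg and WT, 3 to 4 between BTg and CKO and 4 to 5 between numbers. Between CKO and WT, Malat1 ranged from −1.34 to 0.29, Neat1 from −1.03 to 0.089, Snhg6 from −0.43 to 0.053 and Snhg8 from −0.99 to 0.17. Between BTg and WT, Malat1 ranged from −0.25 to 0.37, Neat1 from −0.27 to 0.61 and Snhg8 from −0.92 to 0.24. Between BTg and CKO, Malat1 ranged from −0.23 to 1.40, Neat1 from 0.083 to 1.20, Snhg6 from −0.25 to 0.235 and Snhg8 from −0.33 to 0.46. Between numbers, Malat1 ranged from −1.12 to −0.41 and Snhg1 from −0.009 to 0.12. An arm left with 1 library is assumed to vary like the others. The intervals are as wide as 2 libraries per group make them.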
